A study of Homo sapiens with 18 samples.

Results

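The genes described here are 10 transcripts that the RAS-ERK cascade is known to switch on and that mostly feed back on it. They are the phosphatase genes DUSP4, DUSP5 and DUSP6, the inhibitor genes SPRY1, SPRY2, SPRY4 and SPRED1, and the transcription factor genes ETV1, ETV4 and ETV5. They were chosen by symbol, with earlier results of these data known, and all 10 had a probe on the array, 1 probe each, among 17687 named genes and 21448 probes in all. Expression was measured on 18 whole-transcript arrays, 3 biological replicates in each of 6 groups. CHLA-90 and SK-N-BE(2), 2 lines grown from human neuroblastoma, were seeded at 250000 cells per well and given pLKO lentivirus made in HEK-293T cells, and RNA was taken 72 hours after transduction. The virus carried shERK5-4 or shERK5-5, which are short hairpin RNAs against ERK5, or the control hairpin shNSC, so the shNSC cells were transduced as well. Amplification of the MYCN oncogene is known in SK-N-BE(2) and not in CHLA-90.

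ERK1 and ERK2, the classical MAP kinases, are switched on by growth factor receptors through RAS, RAF and MEK. Their activity is held back by proteins whose genes they induce. Dual-specificity phosphatases remove the activating phosphates from MAP kinases, and Sprouty and SPRED proteins act upstream, between receptor and RAF. The PEA3 factors ETV1, ETV4 and ETV5 are ETS-domain transcription factors that carry part of the response to the nucleus. The level of these transcripts is therefore widely used as a readout of ERK1/2 signalling. ERK5, encoded by MAPK7, is a separate MAP kinase with its own activating kinase, MEK5, and receptors of neurotrophins and growth factors can switch on both.

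Promoter windows of 4 members are shown because their genes behaved differently: DUSP6, SPRY2 and SPRY4 fell with shERK5-4 in both lines, and SPRED1 did not change past the threshold with either hairpin. Each window runs from 250 bases before to 50 bases after the start of the gene, on GRCh38.p14, from RefSeq. Capitals mark matches to the ETS motifs CCGGAA and AGGAAG on either strand.
DUSP6 (chr12:89352452-89352751, minus strand): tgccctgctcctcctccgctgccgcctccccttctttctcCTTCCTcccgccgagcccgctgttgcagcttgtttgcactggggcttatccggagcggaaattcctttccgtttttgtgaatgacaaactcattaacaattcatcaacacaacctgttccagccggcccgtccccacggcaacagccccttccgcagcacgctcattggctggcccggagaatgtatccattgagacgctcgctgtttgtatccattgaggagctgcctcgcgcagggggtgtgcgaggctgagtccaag
SPRY2 (chr13:80341077-80341376, minus strand): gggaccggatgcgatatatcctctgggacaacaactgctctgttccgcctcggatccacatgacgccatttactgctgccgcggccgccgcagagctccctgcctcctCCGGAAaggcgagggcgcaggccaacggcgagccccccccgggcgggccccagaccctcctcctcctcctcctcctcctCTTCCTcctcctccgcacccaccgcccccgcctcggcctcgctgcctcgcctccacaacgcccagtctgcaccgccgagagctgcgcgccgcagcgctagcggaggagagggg
SPRY4 (chr5:142324198-142324497, minus strand): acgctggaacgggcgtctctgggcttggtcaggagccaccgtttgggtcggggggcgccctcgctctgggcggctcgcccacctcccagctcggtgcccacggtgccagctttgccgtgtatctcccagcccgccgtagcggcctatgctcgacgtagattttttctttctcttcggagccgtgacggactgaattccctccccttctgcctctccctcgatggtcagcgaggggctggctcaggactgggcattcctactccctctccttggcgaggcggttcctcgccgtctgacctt
SPRED1 (chr15:38252586-38252885, plus strand): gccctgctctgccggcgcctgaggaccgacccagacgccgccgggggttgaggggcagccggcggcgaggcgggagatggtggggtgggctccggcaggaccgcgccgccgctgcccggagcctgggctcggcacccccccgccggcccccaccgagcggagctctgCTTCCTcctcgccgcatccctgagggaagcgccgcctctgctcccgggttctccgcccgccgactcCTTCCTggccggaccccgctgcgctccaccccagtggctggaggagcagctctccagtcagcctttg
The motif search among members covered 14 such windows for 6 of the 10 (DUSP6, SPRY1, SPRY2, SPRY4, SPRED1 and ETV1). Some of these were overlapping alternative starts of 1 gene. Windows of the remaining members were left out of the member counts, so whether they hold these motifs is not described. CCGGAA was found in 5 of the 14 windows, from ETV1, SPRY1 and SPRY2, and in 17.2% of all 35116 windows. AGGAAG was found in 8 of the 14 windows and in 33.6% of all windows. Those 8 came from 5 of the 6 genes, SPRY4 being the exception. The SP1 motif GGGCGG was found in 9 of the 14 windows, from all 6 genes but DUSP6, and in 45.0% of all windows. Overlapping windows can share a match, so these counts are no measure of enrichment. None of the 14 windows held the cyclic AMP response motif TGACGT, the AP-1 motif TGACTCA or TATAAA, on either strand, which 7.98%, 4.95% and 11.5% of all windows held. A match is a run of letters and not a bound site, and SPRED1, which did not change past the threshold, held AGGAAG as DUSP6 and SPRY2 did.

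All values are log2 signals as the authors deposited them. Array medians lay between 6.35 and 6.43 in CHLA-90 and between 5.63 and 5.69 in SK-N-BE(2), so levels are compared within a line unless stated. Across probes, r between arrays of the same group was 0.988 to 0.997, and 0.971 to 0.989 between arrays of different groups of a line. MAPK7, the target, was lower with both hairpins. Its mean log2 signal in SK-N-BE(2) was 6.09 ± 0.17 with shERK5-4 and 6.15 ± 0.13 with shERK5-5, against 6.78 ± 0.28 with shNSC (SD, n = 3 in every group). The CHLA-90 means were 7.35 ± 0.21 and 7.43 ± 0.35, against 8.42 ± 0.20 with shNSC, differences of -1.07 (adjusted p = 0.000329) and -0.99 (adjusted p = 0.00139). The 95% interval of the difference of shERK5-4 from shERK5-5 in MAPK7 was -0.461 to 0.347 in SK-N-BE(2) and -0.484 to 0.324 in CHLA-90. The MAPK7 calls in SK-N-BE(2) rest on few arrays: the change was -0.69 with shERK5-4 (adjusted p = 0.0103, and 0.061 without shNSC replicate 1) and -0.64 with shERK5-5 (adjusted p = 0.0319, and up to 0.149 when 1 array was left out among shNSC replicates 1 and 3 and shERK5-5 replicates 1 and 2). Of 12 measured neuroblastoma markers, the 12 in CHLA-90 and 11 in SK-N-BE(2) lay above the median signal of all probes in every group, DBH being the exception, while no Schwann cell (5 measured) or endothelial (6 measured) marker did. Of 7 fibroblast markers 5 did so in CHLA-90 and 6 in SK-N-BE(2), and of 6 blood and immune markers 0 and 1.

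The feedback genes fell with one hairpin and not with the other. With shERK5-4, 7 of the 10 members were lower than with shNSC in each line, namely DUSP4, DUSP6, SPRY1, SPRY2, SPRY4, ETV1 and ETV4, and 1, ETV5, was higher (limma, adjusted p below 0.05 over all probes). Of all probes, 23.9% were called with shERK5-4 in SK-N-BE(2) (11.7% lower, 12.2% higher) and 18.3% in CHLA-90 (8.25% lower, 10% higher). With shERK5-5 no member was lower in either line. Instead 3 were higher in SK-N-BE(2) (DUSP5, DUSP6 and ETV5) and 3 in CHLA-90 (DUSP6, SPRY1 and SPRY4). Of all probes, shERK5-5 called 12.8% in SK-N-BE(2) (6.07% lower, 6.76% higher) and 12.7% in CHLA-90 (6.84% lower, 5.85% higher). At an unadjusted p below 0.05, 4 members were counted in each line with shERK5-5. The share of all probes at that unadjusted threshold is not given here. With shERK5-4 the median log2 change of the 10 members was -1.41 in SK-N-BE(2) and -0.78 in CHLA-90, beside 0.01 over all probes in each line. With shERK5-5 it was 0.38 and 0.40, beside medians of 0.00 and 0.05 over all probes. The changes against shNSC are plotted gene by gene.

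**Figure D1:**
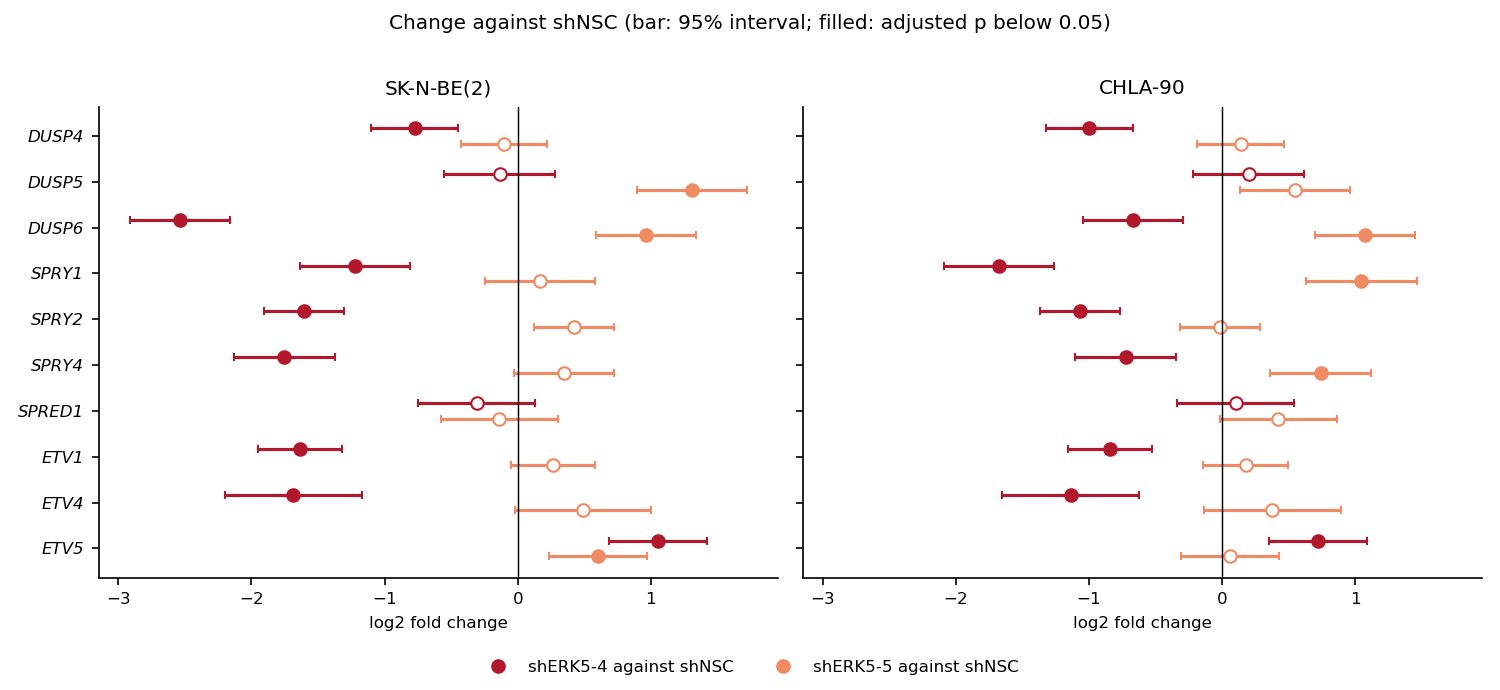
Log2 fold change of each gene against shNSC (x axis) with shERK5-4 (dark) and shERK5-5 (light) in SK-N-BE(2) on the left and CHLA-90 on the right; bars are 95% intervals and filled points have an adjusted p below 0.05. The dark points lie left of 0 for 9 genes in SK-N-BE(2) and 7 in CHLA-90, and the light points right of 0 for 8 and 9.

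DUSP6, the cytoplasmic phosphatase that acts on ERK1/2 (probe TC1200011470.hg.1), showed the widest swing in SK-N-BE(2). Its log2 signal there was 9.28, 8.96 and 9.17 with shERK5-4, 12.67, 12.60 and 12.64 with shERK5-5, and 11.61, 11.70 and 11.72 with shNSC. The groups did not overlap, with shNSC between the hairpins, and 32.7% of all probes did not overlap between shERK5-4 and shNSC there and 30.0% between shERK5-5 and shNSC. DUSP6 was 5.82-fold lower with shERK5-4 (log2 change -2.54 ± 0.18, SE; adjusted p = 4.86e-10) and 1.95-fold higher with shERK5-5 (0.96 ± 0.18; adjusted p = 0.000649). The CHLA-90 arrays gave 6.92, 6.32 and 6.88 with shERK5-4, 8.21, 8.45 and 8.69 with shERK5-5, and 7.62, 7.25 and 7.25 with shNSC. The order was the same and the groups again did not overlap, as for 37.5% of all probes with shERK5-4 and 26.8% with shERK5-5. The changes were -0.67 ± 0.18 (adjusted p = 0.0111) and 1.08 ± 0.18 (adjusted p = 0.000288). The shERK5-4 call in CHLA-90 was lost without shNSC replicate 1 (-0.54, adjusted p = 0.0758) or without shERK5-4 replicate 2 (-0.47, adjusted p = 0.106).

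DUSP4, an inducible nuclear phosphatase (probe TC0800010002.hg.1), was 9.67, 9.75 and 9.50 with shERK5-4, 10.38, 10.24 and 10.31 with shERK5-5, and 10.29, 10.28 and 10.67 with shNSC in SK-N-BE(2). Its CHLA-90 values were 10.32, 10.47 and 10.20 with shERK5-4, 11.49, 11.39 and 11.52 with shERK5-5, and 11.37, 11.16 and 11.45 with shNSC. The shERK5-4 arrays were the lowest in both lines, while the shERK5-5 and shNSC arrays overlapped. DUSP4 fell with shERK5-4 in SK-N-BE(2) (-0.77 ± 0.16, adjusted p = 0.000645) and in CHLA-90 (-0.997 ± 0.16, adjusted p = 6.26e-05), and its shERK5-5 changes were -0.10 and 0.14. DUSP5, a nuclear phosphatase selective for ERK1/2 (probe TC1000008891.hg.1), did not follow the other phosphatases with shERK5-4. It was 7.38, 7.28 and 7.60 with shERK5-4, 8.94, 8.77 and 8.88 with shERK5-5, and 7.35, 7.84 and 7.48 with shNSC in SK-N-BE(2). Only the shERK5-5 arrays stood apart there, 2.47-fold higher than shNSC (log2 change 1.31 ± 0.20, adjusted p = 6.37e-05). In CHLA-90 both hairpins overlapped with shNSC, with 6.64, 6.20 and 6.30 for shERK5-4 and 6.74, 6.32 and 7.12 for shERK5-5, against 6.21, 5.94 and 6.39 with shNSC. The shERK5-5 change in CHLA-90 was 0.55 ± 0.20 (adjusted p = 0.0772), and 0.75 (adjusted p = 0.0194) without shERK5-5 replicate 2.

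The Sprouty genes fell together with shERK5-4. SPRY2, an inhibitor of receptor tyrosine kinase signalling to RAS (probe TC1300009348.hg.1), was 9.51, 9.32 and 9.38 with shERK5-4, 11.28, 11.44 and 11.56 with shERK5-5, and 11, 11.16 and 10.86 with shNSC in SK-N-BE(2). In CHLA-90 SPRY2 stood at 8.17, 8.23 and 8.22 with shERK5-4, then with shERK5-5 at 9.22, 9.26 and 9.29, against 9.24, 9.28 and 9.30 with shNSC. The spread within each CHLA-90 group was 0.04 or less (SD), and there shERK5-5 and shNSC overlapped. SPRY2 was 3.04-fold lower with shERK5-4 in SK-N-BE(2) (-1.60 ± 0.14, adjusted p = 1.67e-08) and 2.09-fold lower in CHLA-90 (-1.07 ± 0.14, adjusted p = 9.14e-06). With shERK5-5 its change was 0.42 ± 0.14 in SK-N-BE(2) (adjusted p = 0.0602), past the threshold after median centring (0.44, adjusted p = 0.0478), and -0.02 ± 0.14 in CHLA-90 (adjusted p = 0.962).

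SPRY4, which also restrains signalling to RAS and RAF (probe TC0500012312.hg.1), was 8.47, 9.10 and 8.90 with shERK5-4, 10.85, 10.99 and 10.93 with shERK5-5, and 10.47, 10.66 and 10.60 with shNSC in SK-N-BE(2). CHLA-90 arrays gave 9.14, 9.46 and 9.42 with shERK5-4 and 10.46, 11.06 and 10.89 with shERK5-5, against 10.13, 9.94 and 10.12 with shNSC. The 3 groups stood apart in both lines, shERK5-4 lowest and shERK5-5 highest. The shERK5-4 change was -1.75 ± 0.18 in SK-N-BE(2) (adjusted p = 1.39e-07) and -0.72 ± 0.18 in CHLA-90 (adjusted p = 0.00643). The shERK5-5 change was 0.74 ± 0.18 in CHLA-90 (adjusted p = 0.0089), and 0.35 ± 0.18 in SK-N-BE(2), where it did not pass the threshold (adjusted p = 0.28). SPRY1, another inhibitor of the Sprouty family (probe TC0400008628.hg.1), was 6.71, 6.04 and 6.35 with shERK5-4, 7.66, 7.65 and 7.96 with shERK5-5, and 7.46, 7.43 and 7.88 with shNSC in SK-N-BE(2). Its values in CHLA-90 were 5.63, 5.73 and 6.21 with shERK5-4 and 8.74, 8.60 and 8.39 with shERK5-5, against 7.72, 7.49 and 7.38 with shNSC. The CHLA-90 groups did not overlap, and SPRY1 was the member with the largest shERK5-4 fall in that line, 3.19-fold (-1.67 ± 0.20, adjusted p = 1.72e-06), beside a rise of 2.07-fold with shERK5-5 (1.05 ± 0.20, adjusted p = 0.00103). In SK-N-BE(2) it fell with shERK5-4 (-1.22 ± 0.20, adjusted p = 6.01e-05), and its shERK5-5 and shNSC arrays overlapped.

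SPRED1, which brings the RAS inhibitor neurofibromin to the membrane (probe TC1500006896.hg.1), passed the threshold with neither hairpin in either line. Its arrays ranged from 9.72 to 10.46 with shERK5-4, from 10.11 to 10.29 with shERK5-5, and from 10.27 to 10.40 with shNSC in SK-N-BE(2). The CHLA-90 ranges were 9.64 to 9.98 with shERK5-4, 9.77 to 10.62 with shERK5-5 and 9.43 to 9.88 with shNSC. Each hairpin group overlapped with shNSC. The 4 log2 changes lay between -0.31 and 0.42, with 95% intervals that reached from -0.746 to 0.863.

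The PEA3 factors divided. ETV1, which can also act as an oncogene in tumours that depend on ERK signalling (probe TC0700010321.hg.1) was 11.43, 11.76 and 11.62 with shERK5-4, 13.56, 13.43 and 13.52 with shERK5-5, and 13.23, 13.30 and 13.18 with shNSC in SK-N-BE(2). The CHLA-90 signals were 11.20, 11.29 and 11.43 with shERK5-4 and 12.41, 12.46 and 12.10 with shERK5-5, against 12.20, 12.04 and 12.20 with shNSC. The shERK5-4 arrays were the lowest in both lines. ETV1 was 3.10-fold lower in SK-N-BE(2) (-1.63 ± 0.15, adjusted p = 2.96e-08) and 1.79-fold lower in CHLA-90 (-0.84 ± 0.15, adjusted p = 0.000317). ETV4, also called PEA3 and the factor that named the group (probe TC1700010790.hg.1) was 7.30, 8.31 and 7.65 with shERK5-4, 10.12, 9.85 and 9.82 with shERK5-5, and 9.36, 9.45 and 9.51 with shNSC in SK-N-BE(2). In CHLA-90 it was 7.21, 7.17 and 7.68 with shERK5-4 and 8.28, 9.25 and 9.07 with shERK5-5, against 8.44, 8.26 and 8.77 with shNSC. It varied more between replicates than the other members, with SDs up to 0.52, and its shERK5-4 arrays still lay below all others of their line. It fell with shERK5-4 in SK-N-BE(2) (-1.69 ± 0.25, adjusted p = 1.63e-05) and in CHLA-90 (-1.14 ± 0.25, adjusted p = 0.00188). The shERK5-5 changes of ETV1 and ETV4 were between 0.18 and 0.49 and did not pass the threshold.

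ETV5, also called ERM and of the same group (probe TC0300014082.hg.1), moved the other way with shERK5-4. It was 11.69, 11.90 and 11.99 with shERK5-4, 11.25, 11.22 and 11.75 with shERK5-5, and 10.77, 10.99 and 10.66 with shNSC in SK-N-BE(2). Its CHLA-90 arrays gave 10.97, 11.05 and 11 with shERK5-4 and 10.20, 10.25 and 10.59 with shERK5-5, against 10.24, 10.11 and 10.51 with shNSC. Both hairpin groups lay above shNSC in SK-N-BE(2), and only shERK5-4 did in CHLA-90. With shERK5-4 it rose 2.08-fold in SK-N-BE(2) (1.05 ± 0.18, adjusted p = 8.76e-05) and 1.65-fold in CHLA-90 (0.72 ± 0.18, adjusted p = 0.00545). In CHLA-90 its shERK5-5 change was 0.06. Its shERK5-5 rise in SK-N-BE(2) (0.60 ± 0.18, adjusted p = 0.026) was lost in the fit to that line alone (adjusted p = 0.0546) and without shNSC replicate 1 (0.0807), shNSC replicate 3 (0.108) or shERK5-5 replicate 3 (0.43, adjusted p = 0.189).

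**Figure D2:**
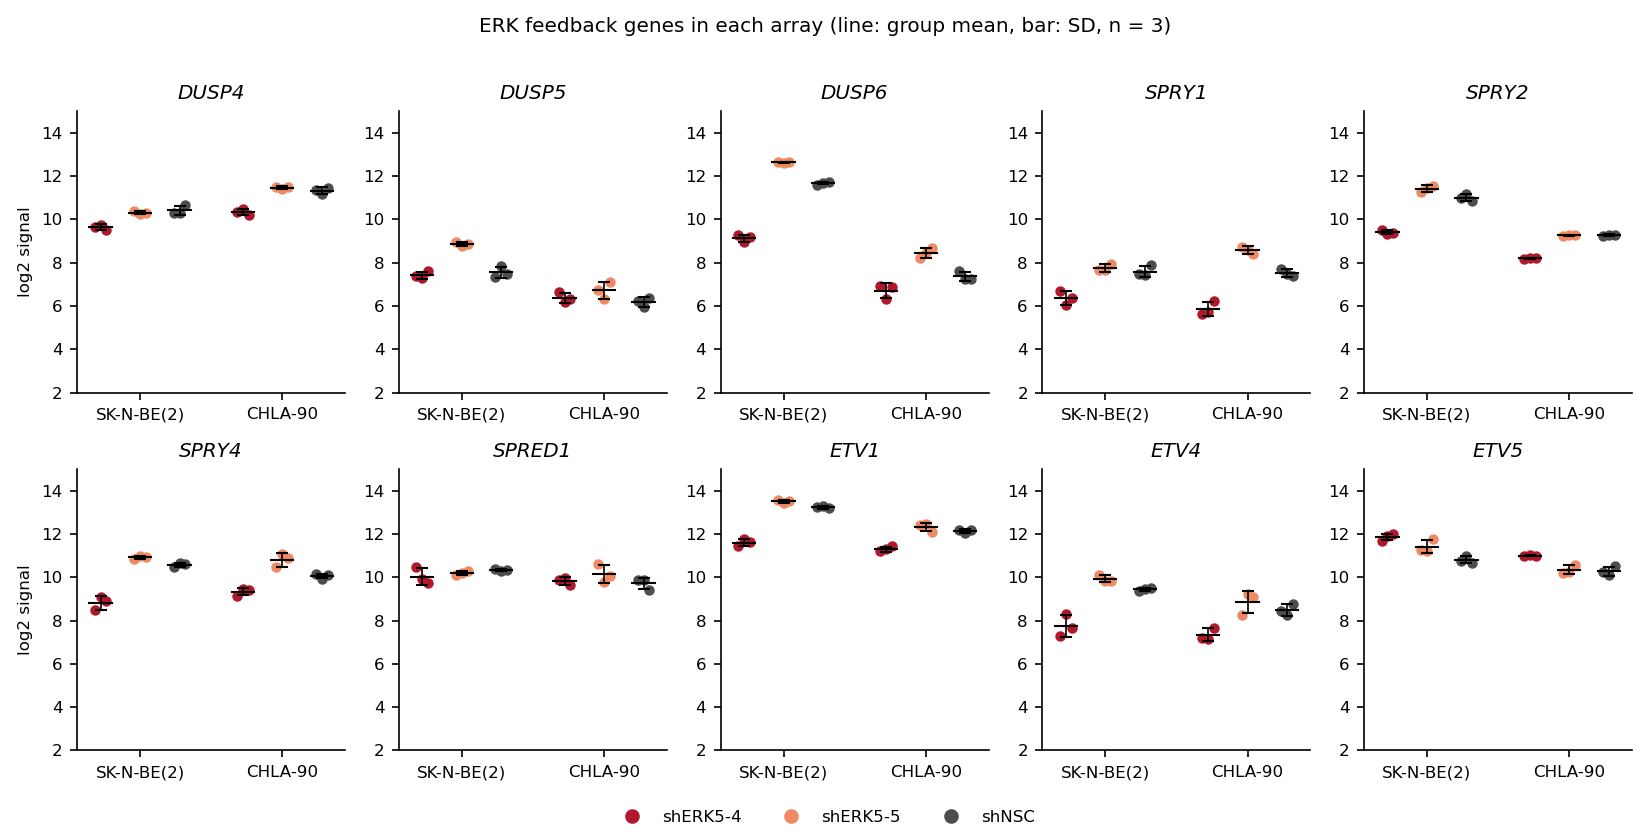
Log2 signal (y axis, same range in every panel) of the 10 genes in each array, by line and by hairpin, with the mean as a line and the SD as a bar (n = 3). In 7 genes of SK-N-BE(2) and 6 of CHLA-90 the means run from shERK5-4, the lowest, through shNSC to shERK5-5, the highest. This is an order of means only, and some groups overlap, as in DUSP5 of SK-N-BE(2) and DUSP4 of CHLA-90. The share of all probes with this order was not counted.

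Since both comparisons use the same shNSC arrays, the hairpins were also compared with each other directly. In SK-N-BE(2) 8 members were lower with shERK5-4 than with shERK5-5 and 0 higher, where 24.5% of all probes were called (12.6% lower, 11.8% higher). In CHLA-90 7 were lower and 1, ETV5, higher, where 27.2% of all probes were called (12.4% lower, 14.8% higher). The arrays of the hairpins did not overlap for those 8 members in either line, nor for 33.9% of all probes in SK-N-BE(2) and 39.7% in CHLA-90. DUSP6 showed the largest difference in SK-N-BE(2), 11.3-fold lower with shERK5-4 (-3.50 ± 0.18, adjusted p = 2.16e-12), and SPRY1 in CHLA-90, 6.59-fold lower (-2.72 ± 0.20, adjusted p = 9.92e-10). SPRY2, SPRY4, ETV1 and ETV4 differed by -1.90 to -2.18 in SK-N-BE(2) and -1.02 to -1.51 in CHLA-90. The 7 genes lower in both lines were DUSP4, DUSP6, SPRY1, SPRY2, SPRY4, ETV1 and ETV4, and DUSP5 was lower in SK-N-BE(2) (-1.44 ± 0.20, adjusted p = 6.23e-06). The median difference of the members was -1.67 in SK-N-BE(2) and -1.09 in CHLA-90, beside 0.03 and -0.05 over all probes. ETV5 differed by 0.45 ± 0.18 in SK-N-BE(2) (adjusted p = 0.0695), past the threshold after quantile normalization (adjusted p = 0.028) and without shERK5-5 replicate 3 (adjusted p = 0.0179).

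The shERK5-4 effect was smaller in CHLA-90 than in SK-N-BE(2) for 3 members, by a test of the difference between the lines that called 7.23% of all probes (3.89% higher, 3.33% lower). The difference was 1.87 ± 0.26 for DUSP6 (adjusted p = 5.03e-05), 1.03 ± 0.26 for SPRY4 (adjusted p = 0.0149) and 0.79 ± 0.22 for ETV1 (adjusted p = 0.0258). Under shNSC DUSP6 stood 0.99 above the array median in CHLA-90 and 6.01 above it in SK-N-BE(2). A part of this starting level in the difference was not tested. The ETV1 difference was lost after quantile normalization (0.62, adjusted p = 0.104) and without any 1 of 5 arrays (adjusted p up to 0.0714): shNSC replicate 2 or shERK5-4 replicate 1 of SK-N-BE(2), or shNSC replicate 2 or shERK5-4 replicate 2 or 3 of CHLA-90. For shERK5-5 no member differed between the lines by limma, adjusted p below 0.05, where 5.39% of all probes were called (2.40% higher, 2.99% lower). At an unadjusted p below 0.05 there were 4 members, a count that cannot be set beside the 5.39%. The share of all probes at that unadjusted threshold is not given here. The median difference of the members was 0.01, beside 0.04 over all probes. SPRY1 came nearest, with 0.88 ± 0.28 (adjusted p = 0.0729), and passed the threshold after quantile normalization (0.98, adjusted p = 0.0408), while DUSP5 passed it without CHLA-90 shERK5-5 replicate 3 (-0.96, adjusted p = 0.0404).

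**Figure D3:**
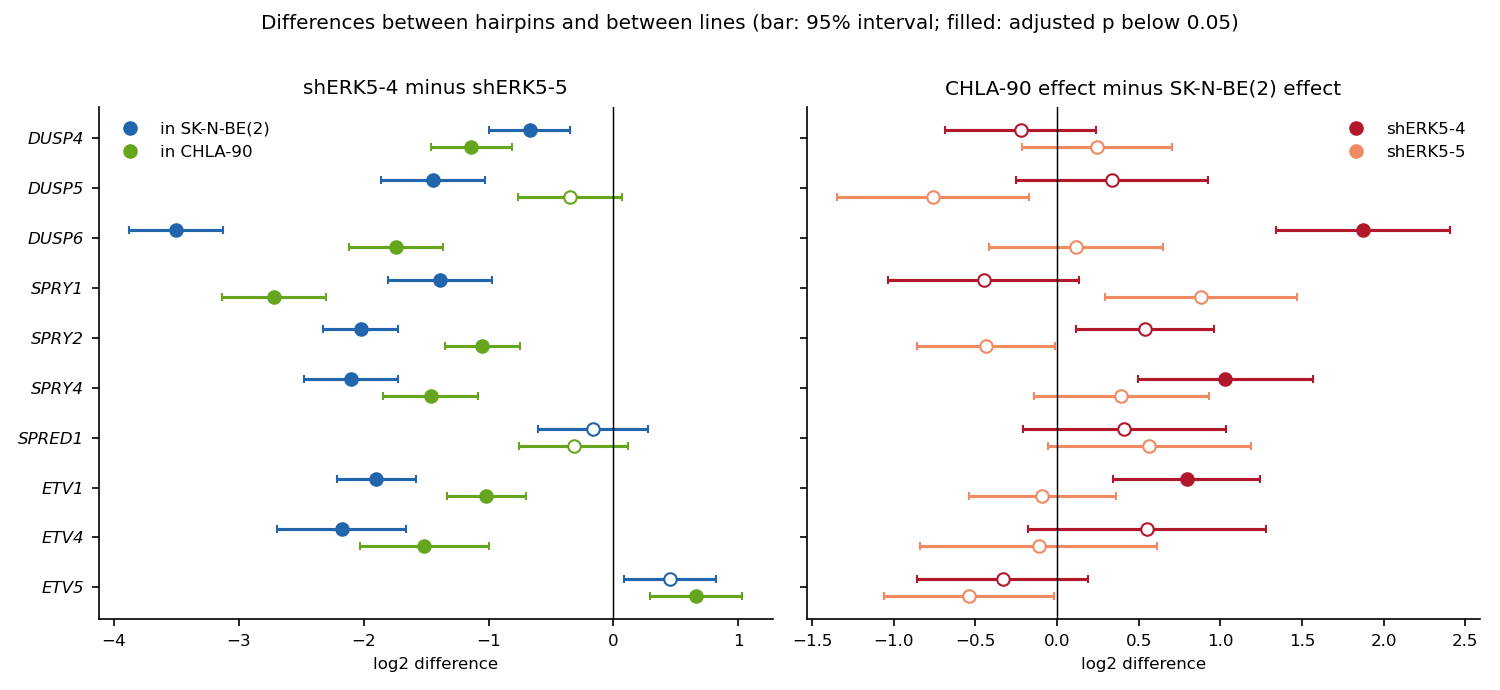
Log2 difference (x axis) of shERK5-4 from shERK5-5 in each line on the left, and of the effect in CHLA-90 from the effect in SK-N-BE(2) for each hairpin on the right; bars are 95% intervals and filled points have an adjusted p below 0.05. On the left 7 genes are filled and below 0 in both lines, and on the right DUSP6, SPRY4 and ETV1 are filled with shERK5-4.

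Under shNSC the feedback genes were lower in CHLA-90 than in SK-N-BE(2) once each array was centred on its own median. The median of all probes was then -0.27 in this comparison, and 56.3% of all probes were called (37.1% lower, 19.2% higher). Of the 10 members 9 were lower. DUSP6 stood 0.99 ± 0.19 above the array median in CHLA-90 and 6.01 ± 0.08 above it in SK-N-BE(2) (SD, n = 3), a difference of -5.02 ± 0.18 (adjusted p = 3.34e-16). SPRY2 (-2.45 ± 0.15), DUSP5 (-2.10 ± 0.20) and ETV1 (-1.81 ± 0.15) followed. DUSP4 was the member not called (0.20 ± 0.16, adjusted p = 0.307). The scale of this comparison is uncertain. Without centring 80.6% of the called probes were higher in CHLA-90, beside 34.1% with centring and 49.0% after quantile normalization. On the deposited scale SPRY1 was no longer called (-0.06, adjusted p = 0.808) and DUSP4 was higher in CHLA-90 (0.91, adjusted p = 3.22e-05; 0.47, adjusted p = 0.0191, after quantile normalization), while DUSP6 still differed by -4.30 (adjusted p = 5.71e-15).

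Other genes of the pathway were taken from 6 lists. Their counts are to be read beside the share of all probes called, since some lie near it. That share was 23.9% in SK-N-BE(2) and 18.3% in CHLA-90 with shERK5-4, and 12.8% and 12.7% with shERK5-5. Of 16 other MAP kinase phosphatase genes, 0 rose and 4 fell with shERK5-4 in SK-N-BE(2), and 3 rose and 2 fell in CHLA-90. With shERK5-5 4 rose and 1 fell in SK-N-BE(2), while 1 rose and 0 fell in CHLA-90. The median change of the list lay between -0.15 and 0.07 in these comparisons. PTPRR, a receptor-type tyrosine phosphatase that acts on ERK, fell with shERK5-4 in both lines (-1.46 ± 0.18 in SK-N-BE(2) and -2.70 ± 0.18 in CHLA-90, adjusted p = 1.37e-06 and 2.33e-10), with changes of -0.14 and 0.30 for shERK5-5 that did not pass the threshold. DUSP8, a phosphatase of the stress-activated kinases, rose with shERK5-5 in both lines (1.69 ± 0.27 and 1.56 ± 0.27, adjusted p = 0.000128 and 0.000486), with -0.55 and -0.01 for shERK5-4. The DUSP8 signal was low, with shNSC means of 3.62 in SK-N-BE(2) and 4.50 in CHLA-90, below the array medians. DUSP14 rose with shERK5-5 in SK-N-BE(2) (1.00) and with shERK5-4 in CHLA-90 (1.33). Its shERK5-4 change in SK-N-BE(2) was 0.60 (adjusted p = 0.0524, and 0.0149 with the replicate block). DUSP3 rose with shERK5-4 in CHLA-90 (1.31), and its shERK5-5 rise in SK-N-BE(2) (0.73, adjusted p = 0.0196) was lost without shNSC replicate 2, shERK5-5 replicate 1 or shERK5-5 replicate 2 (adjusted p up to 0.121).

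Of 21 other genes listed as outputs or effectors of ERK, CIC among them, 0 rose and 7 fell with shERK5-4 in SK-N-BE(2). In CHLA-90 3 rose and 4 fell. SPRED2 is in this list and also in that of the other RAS-ERK brakes. With shERK5-5 2 rose and 2 fell in SK-N-BE(2), while 3 rose and 1 fell in CHLA-90. Their median changes were -0.23 and 0.00 with shERK5-4, and 0.09 and 0.12 with shERK5-5. PHLDA1, a pleckstrin homology domain protein, fell with shERK5-4 in both lines (-1.68 ± 0.18 and -1.57 ± 0.18, adjusted p = 2.84e-07 and 1.23e-06) and had changes of 0.34 and 0.12 with shERK5-5 that did not pass the threshold. EGR1, an immediate early zinc finger factor, fell with shERK5-4 in SK-N-BE(2) (-3.55 ± 0.20, adjusted p = 1.34e-11) and rose with shERK5-5 in CHLA-90 (1.06 ± 0.20, adjusted p = 0.00104). With shERK5-4 IER3, another immediate early gene, fell in SK-N-BE(2) (-2.88) and rose in CHLA-90 (0.76), a difference of CHLA-90 from SK-N-BE(2) of 3.64 ± 0.25 (adjusted p = 5.29e-09). Its shERK5-5 changes of -0.64 and 0.60 passed the threshold (adjusted p = 0.0193 and 0.0302) and lost it without any 1 of 4 arrays in SK-N-BE(2) and 5 in CHLA-90 (adjusted p up to 0.0748 and 0.11), while the difference between the lines was 1.24 ± 0.25 (adjusted p = 0.00588). The line differences of IER3 were looked at because its calls were opposite, a choice that favours a difference. TFPI2, a secreted protease inhibitor, fell in CHLA-90 with shERK5-4 (-2.67) and shERK5-5 (-1.22).

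Of 13 measured RAS-ERK brakes outside the 10 genes, 2 rose and 3 fell with shERK5-4 in SK-N-BE(2), and 5 rose and 1 fell in CHLA-90. In SK-N-BE(2) 0 rose and 2 fell with shERK5-5, while 1 rose and 0 fell in CHLA-90. The list's median change was 0.13 and 0.47 with shERK5-4, and -0.18 and -0.04 with shERK5-5. ERRFI1, an inhibitor of the EGF receptor, fell with shERK5-4 in SK-N-BE(2) (-2.28 ± 0.26, adjusted p = 4.24e-07). Its fall in CHLA-90 (-0.90 ± 0.26, adjusted p = 0.0148) was lost without shNSC replicate 2 or 3 or shERK5-4 replicate 2 (adjusted p up to 0.0802). RASAL2, a RAS GTPase-activating protein, rose with shERK5-4 in both lines (1.10 and 1.16). Its shNSC mean in SK-N-BE(2) was low, 4.75, below the array median. Its shERK5-5 rise in CHLA-90 (0.77, adjusted p = 0.0284) was lost without shNSC replicate 2 or 3 or shERK5-5 replicate 1 or 2 (adjusted p up to 0.0974). NF1, neurofibromin, rose with shERK5-4 in CHLA-90 (1.09), with -0.01 in SK-N-BE(2). There its shERK5-5 fall (-0.75, adjusted p = 0.00579) was lost without shNSC replicate 2 (adjusted p = 0.0554). CBL, a ubiquitin ligase of receptor kinases, rose with shERK5-4 in CHLA-90 (0.69) and fell with shERK5-5 in SK-N-BE(2) (-0.74). Its shERK5-4 rise in SK-N-BE(2) (0.54, adjusted p = 0.0207) was lost without shNSC replicate 1 or 2 (adjusted p up to 0.0817).

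Of 16 measured members of the core cascade, 5 rose and 4 fell with shERK5-4 in SK-N-BE(2), and 2 rose and 3 fell in CHLA-90. With shERK5-5 3 rose and 2 fell in SK-N-BE(2), while 3 rose and 5 fell in CHLA-90. Medians were 0.33 and 0.21 with shERK5-4, and 0.13 and -0.03 with shERK5-5. ARAF, a RAF kinase, fell with both hairpins in both lines. Its shERK5-4 changes were -1.30 in SK-N-BE(2) and -1.18 in CHLA-90, and its shERK5-5 changes -1.47 and -1.70. RPS6KA3, an ERK-activated ribosomal S6 kinase, fell with both in SK-N-BE(2) (-1.34 and -1.26). In CHLA-90 its shERK5-4 change was -0.45 (adjusted p = 0.0613), and its shERK5-5 fall (-0.54, adjusted p = 0.0326) was lost without any 1 of 5 CHLA-90 arrays (adjusted p up to 0.102), in a fit to that line alone (0.0512) and after quantile normalization (0.0612). The RAS exchange factor SOS2 rose with both in SK-N-BE(2) (0.76 and 0.94) and with shERK5-5 in CHLA-90 (0.98), with 0.53 for shERK5-4 in CHLA-90 (adjusted p = 0.0519, and 0.0317 with the replicate block). SOS1 rose with shERK5-4 in SK-N-BE(2) (0.66) and with shERK5-5 in CHLA-90 (0.90). Its shERK5-4 rise in CHLA-90 (0.47, adjusted p = 0.0453) was lost without any 1 of 10 arrays (adjusted p up to 0.161), with median centring (0.068) and in a fit to that line alone (0.0632), and its shERK5-5 change in SK-N-BE(2) was 0.38 (adjusted p = 0.147).

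Of 17 other ETS factor genes, 2 rose and 3 fell with shERK5-4 in SK-N-BE(2), and 3 rose and 2 fell in CHLA-90. In SK-N-BE(2) 1 rose and 0 fell with shERK5-5, while 2 rose and 2 fell in CHLA-90. Medians were 0.23 and -0.01 with shERK5-4, and 0.09 and 0.17 with shERK5-5. FEV, an ETS factor of serotonin neurons, rose with shERK5-4 in SK-N-BE(2) (2.24) and fell with shERK5-5 in CHLA-90 (-1.10). Its shERK5-5 rise in SK-N-BE(2) (0.83, adjusted p = 0.00979) did not pass when shERK5-5 replicate 3 or shNSC replicate 1 was left out (adjusted p up to 0.0719), while the shERK5-5 effect in CHLA-90 differed from it by -1.92 ± 0.30 (adjusted p = 0.000611). That difference was looked at because the FEV calls were opposite, a choice that favours it. The FEV change with shERK5-4 in CHLA-90 was 0.58 (adjusted p = 0.0634). ETS2 fell with shERK5-4 in CHLA-90 (-1.89), and its fall in SK-N-BE(2) (-0.63, adjusted p = 0.0337) was lost without shNSC replicate 2 or 3 or shERK5-4 replicate 1 or 3 (adjusted p up to 0.131). ELF1 rose with shERK5-4 in both lines (0.71 and 1.40), and its shERK5-5 rise in CHLA-90 (0.55, adjusted p = 0.0428) was lost without any 1 of 9 arrays (adjusted p up to 0.164) and with median centring (0.0577). Of 16 FGF ligand and receptor genes no more than 2 were called in 1 direction by either hairpin in either line. FGF2, a ligand upstream of ERK, rose with shERK5-4 in SK-N-BE(2) (0.70) and fell with shERK5-5 there (-0.91), a difference of 1.61 ± 0.17 between the hairpins (adjusted p = 1.31e-07). Its shERK5-4 rise in CHLA-90 (0.58, adjusted p = 0.0194) was lost without shNSC replicate 2 or 3 or shERK5-4 replicate 1 or 2 (adjusted p up to 0.0728). The shares called in these lists are plotted beside the 10 genes and all probes.

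**Figure D4:**
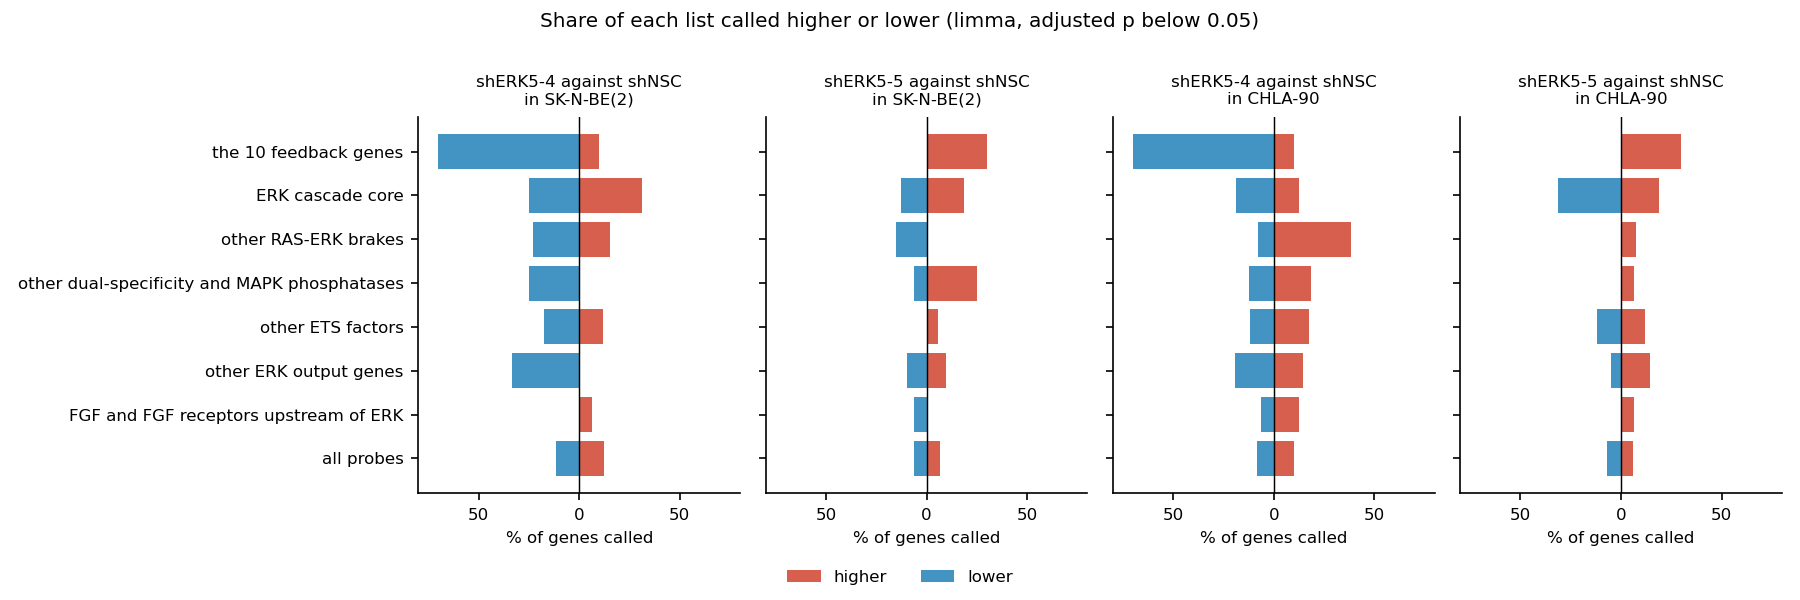
Percent of each list called higher (right of 0) or lower (left of 0) against shNSC, for each hairpin and line; the top bar is the 10 feedback genes and the bottom bar all probes. The feedback genes have 7 of 10 lower with shERK5-4 in both lines and 0 of 10 lower with shERK5-5.

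Neuroblastoma markers fell with shERK5-4 as the 7 feedback genes did, and markers of other cell types were mixed. Of all probes, 11.7% were lower with shERK5-4 in SK-N-BE(2) and 8.25% in CHLA-90. The shares called in either direction with shERK5-5 were 12.8% and 12.7%. With shERK5-4, 7 of the 12 neuroblastoma markers fell and 0 rose in SK-N-BE(2) (median log2 change -0.79), and 8 fell and 0 rose in CHLA-90 (median -1.70). With shERK5-5, 2 rose and 0 fell in SK-N-BE(2) (median 0.20), and 2 rose and 2 fell in CHLA-90 (median -0.04). Their summed signal in SK-N-BE(2), as log2, was 15.6 to 15.8 with shERK5-4, 16.7 to 17 with shERK5-5 and 16.5 to 16.6 with shNSC. The CHLA-90 sums were 17 to 17.2 with shERK5-4, 18.2 to 18.4 with shERK5-5 and 18 to 18.2 with shNSC. Of the 7 fibroblast markers, 3 fell and 1 rose with shERK5-4 in SK-N-BE(2) and 2 fell and 0 rose in CHLA-90, while with shERK5-5 4 rose and 0 fell, and 1 rose and 0 fell. Their median change was 0.35 and 0.00 with shERK5-4, and 0.63 and 0.27 with shERK5-5. The fibroblast sum in SK-N-BE(2) was 14 to 14.1 with shERK5-4, 16.3 with shERK5-5 and 15 to 15.2 with shNSC. In CHLA-90 this sum was 11.8 with shERK5-4, 12.8 to 13 with shERK5-5 and 12.6 to 12.7 with shNSC. Of its members, LUM in SK-N-BE(2) averaged 11.32 with shERK5-4, 15.75 with shERK5-5 and 14.49 with shNSC, and DCN in CHLA-90 averaged 10.51 with shERK5-4, 12.38 with shERK5-5 and 12.14 with shNSC. Other members went the other direction. In SK-N-BE(2) COL1A1 was 9.32 with shERK5-4 and 8.44 with shNSC, COL1A2 9.06 and 8.71, THY1 13.35 and 12.99, and FAP 2.94 and 2.58. In CHLA-90 THY1 was 9.54 with shERK5-4 and 9.03 with shNSC, LUM 9.31 and 9.22, and COL1A1 5.17 and 5.06. No endothelial marker was called with either hairpin against shNSC, and the 1 Schwann cell call was a rise with shERK5-4 in SK-N-BE(2). The sum of the 6 blood and immune markers, none of which lay above the array median in CHLA-90, was 7.20 to 7.37 with shERK5-4, 8.53 to 8.86 with shERK5-5 and 8.33 to 8.64 with shNSC in SK-N-BE(2), where PTPRC was the 1 above it. The neuroblastoma sums were lowest with shERK5-4 in each line, as the 7 feedback genes were. The fibroblast sums were too, but a sum follows its brightest markers, which under shNSC were LUM in SK-N-BE(2) and DCN in CHLA-90. The median fibroblast changes with shERK5-4, 0.35 and 0.00, were no fall. The part of either marker set in the feedback gene changes was not tested. In bulk RNA, fewer cells with a high level of a transcript and less of it per cell cannot be told apart.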

How the data were processed

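RNA of both lines was measured on 18 arrays, 3 per group. For each array the authors deposited 1 log2 signal per transcript cluster, already normalized. That these are log2 values follows from their range. The sources used here give no summarisation method, software or genome build. Detection calls were not at hand, so which probes lie at background is unknown. Arrays have no read depth, and their number limits the precision. A probe table gave 17709 probes 1 symbol, 0 several and 3739 none; each member had 1 probe.

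Groups were taken from titles and characteristics. A model of 6 group means was fitted in limma 3.58.1 (R 4.3.3) to all 21448 probes and 18 arrays with lmFit and eBayes (12 residual and 9.588 prior degrees of freedom), with Benjamini-Hochberg adjustment over all probes of each of 9 contrasts, a threshold of 0.05 and no minimum fold. The comparison of the lines under shNSC used arrays centred on their medians. Errors of changes are standard errors. The fit was tested on simulated data. The labels call the replicates biological. Alternatives were median centring, quantile normalization, dim probes left out, a replicate block, fits to 1 line, eBayes with trend and robust estimation, and leaving out each array.

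The members and lists were chosen with earlier results of these data known. Beside the members and MAPK7, the genes named are up to 4 per list with the largest mean absolute change among those called in at least 2 of the 4 hairpin comparisons, and the 3 genes most like DUSP6, SPRY4 and ETV5. Promoters are RefSeq's (GRCh38.p14). Python 3.11.15 and matplotlib 3.10.9 drew the figures.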

Additional observations from a re-analysis of the deposited data

Results flagged for a closer look

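The effect of shERK5-4 differed between the lines for 3 of the 10 genes, by a limma test of the difference of CHLA-90 from SK-N-BE(2), where 7.23% of all probes were called. DUSP6 changed by -0.67 in CHLA-90 and by -2.54 in SK-N-BE(2), a difference of 1.87 ± 0.26 (SE, adjusted p = 5.03e-05). Under shNSC it stood 0.99 above the array median in CHLA-90 and 6.01 above it in SK-N-BE(2). SPRY4 changed by -0.72 and -1.75, a difference of 1.03 ± 0.26 (adjusted p = 0.0149). ETV1 changed by -0.84 and -1.63, a difference of 0.79 ± 0.22 (adjusted p = 0.0258), which was lost after quantile normalization (0.62, adjusted p = 0.104) and without any 1 of 5 arrays (adjusted p up to 0.0714). Among the other named genes, the line difference is given only for those called in opposite directions by the same hairpin. Such a choice favours a difference, so these p values are no independent support. Other named genes with unequal changes, such as EGR1 with shERK5-4 (-0.28 in CHLA-90, -3.55 in SK-N-BE(2)), are not covered. IER3 changed by 0.76 in CHLA-90 and -2.88 in SK-N-BE(2) with shERK5-4, a difference of 3.64 ± 0.25 (adjusted p = 5.29e-09), and by 0.60 and -0.64 with shERK5-5, a difference of 1.24 ± 0.25 (adjusted p = 0.00588). FEV changed by -1.10 in CHLA-90 and 0.83 in SK-N-BE(2) with shERK5-5, a difference of -1.92 ± 0.30 (adjusted p = 0.000611). Groups of 3 arrays were not tested for single outlying arrays.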

How the results depend on the processing

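Quantile normalization turned the sign of 3 changes that were not called under either setting: SPRY2 with shERK5-5 in CHLA-90 (0.0596), ETV1 in the line difference of the shERK5-5 effect (0.0256) and DUSP8 with shERK5-4 in CHLA-90 (0.0156). It also put 1 member, SPRY1, past the threshold in that line difference, where 0 were called. The members' values were counted over all alternative settings with all replicates, quantile normalization included. Of these values 499 kept direction and side of the threshold, 6 gained a call and 3 lost one. The 2 that changed sign were the SPRY2 and ETV1 values above, after quantile normalization. Leaving out 1 array at a time gave 1720 to 3051 probes called with shERK5-5 in CHLA-90 (1720 without shNSC replicate 3), 643 to 1427 in the line difference of the shERK5-5 effect, and 0 to 1 members there. The count was 643 without SK-N-BE(2) shNSC replicate 2, 674 without SK-N-BE(2) shERK5-5 replicate 3 and 651 without CHLA-90 shNSC replicate 3.

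Values near 0 crossed it when 1 array was left out. With shERK5-4 these were DUSP5 (-0.24 to 0.005), DUSP3 (-0.22 to 0.11) and NF1 (-0.21 to 0.15) in SK-N-BE(2), and SPRED1 (-0.0467 to 0.20) and DUSP8 (-0.15 to 0.0883) in CHLA-90. With shERK5-5 they were DUSP4 (-0.17 to 0.025), EGR1 (-0.19 to 0.085), ERRFI1 (-0.33 to 0.0383), RASAL2 (-0.15 to 0.36) and TFPI2 (-0.05 to 0.17) in SK-N-BE(2), and SPRY2 (-0.0333 to 0.0017), ETV5 (-0.0617 to 0.17), DUSP14 (-0.18 to 0.15) and PHLDA1 (-0.0517 to 0.28) in CHLA-90. The line difference of the shERK5-5 effect ranged over -0.0033 to 0.24 for DUSP6, -0.16 to 0.0217 for ETV1 and -0.31 to 0.18 for ETV4. For MAPK7 the hairpin difference ranged over -0.15 to 0.01 in SK-N-BE(2) and -0.19 to 0.12 in CHLA-90.

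Arrays of a line with the same replicate number deviated from their group means with r between -0.13 and 0.20, and 7 of 18 pairs had r over 0.1, among them the 6 pairs numbered 3 (0.11 to 0.20). Of the 18 arrays 10 correlated best with an array of their own number, a hint from the data only. A fit with the replicate block called the same number of members in each of the 9 comparisons, for example 8 with shERK5-4 in either line, and 5338 probes with shERK5-4 in SK-N-BE(2), against 5133 without it. Among the other named genes it put DUSP14 with shERK5-4 in SK-N-BE(2) (adjusted p = 0.0149) and SOS2 with shERK5-4 in CHLA-90 (0.0317) past the threshold. Another choice of probe per gene was not run, since each member has 1 probe, and comparisons between lines have no fit to 1 line. The cause of these changes was not tested.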

Other observations

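The genes whose pattern was most like 3 of the members were looked for over the 18 arrays after each line's mean was subtracted, as a description. These arrays share their lines and hairpin groups, so any gene that differs between the hairpins can score high. Closest to DUSP6 were SH3RF1 (r = 0.973), a ubiquitin ligase and scaffold of JNK signalling, STAU1 (r = 0.972), an RNA-binding protein, and TOM1L1 (r = 0.972). For SH3RF1 the shERK5-4 changes were -1.46 in CHLA-90 and -3.00 in SK-N-BE(2), and the shERK5-5 changes 0.98 and 0.82. Closest to SPRY4 were NFIA (r = 0.980), a transcription factor of glial development, IQGAP1 (r = 0.972), a scaffold protein of the cytoskeleton and of MAP kinase signalling, and ANTXR2 (r = 0.968). For NFIA the shERK5-4 changes were -1.72 and -3.04, and the shERK5-5 changes 0.72 and 0.64. Closest to ETV5 were AP1S1 (r = 0.938), CCM2 (r = 0.938) and ECI2 (r = 0.931). Among the 10 members, the 7 that fell with shERK5-4 in both lines had pairwise r between 0.74 (DUSP4 and DUSP6) and 0.97 (SPRY2 and ETV1). ETV5, which rose, had an r below 0 with each of those 7. These signs follow from the changes in the same arrays by which the 7 were picked, so they are no separate support. With the same 7, SPRED1 had r of 0.10 (ETV4) to 0.44 (SPRY1), and DUSP5 of 0.29 (DUSP4) to 0.72 (DUSP6).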
